A study of Mus musculus with 2 samples.

Results

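The insulin-like growth factor (IGF) axis genes Igf1, Igf1r, Igf2r and Igfbp2 to Igfbp7 were compared between wild-type and Hammer toe mouse embryos at stage E13.5, in tissue taken from between the hind limb digits. The members were the 9 genes of this list, each read by every probe set whose platform annotation names that gene alone. They made up 9 of 18193 genes so named, with 26 probe sets. The wild-type group was B6 and the other group was homozygous for Hammer toe, a mouse mutant with webbed digits. The Hammer toe label names no strain, so a strain difference and the mutation cannot be told apart. No other allele or agent is named for either group. The tissue was interdigits ID2 and ID3 of the hind limb, and per the study design 15 embryos per genotype were used, as 3 sets of 5 littermates. The files hold 1 Affymetrix array per genotype, and how the sets relate to it is not stated. Without replicates no value has an error between samples, and no difference could be tested.

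IGF1 is a secreted growth and survival factor that acts through the tyrosine kinase receptor encoded by Igf1r. The receptor signals through insulin receptor substrate proteins to PI3K, AKT and mTOR and through adaptors to the MAP kinase cascade. Igf2r encodes the cation-independent mannose 6-phosphate receptor, which takes up IGF2 for breakdown in lysosomes. The IGF binding proteins hold IGFs in the extracellular space and can either limit or prolong their action. In embryonic limbs IGF1 is made mainly by mesenchyme, and regression of the interdigit depends on the balance of survival and death signals in that mesenchyme.

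Igf1 had the highest median over probe sets of any member: all 4 read higher in Hammer toe, by 1.39-fold to 1.85-fold. Igfbp2 was 1.49-fold higher on its single probe set, above 2 of the 4 Igf1 readings. The receptor genes and the binding protein genes Igfbp3, Igfbp4, Igfbp5 and Igfbp7 lay between log2 ratios of -0.32 and 0.30 on every measured probe set, and Igfbp6 was not measured. The sequences before the annotated start of the first pair, and of a receptor and a neighbouring binding protein gene that differed little, are shown because these genes make the contrast. The RefSeq table (GRCm38.p6) holds windows for all 9 members. Each line gives the 250 bases before the start, 5′ to 3′ on the gene's own strand, and capitals mark matches on either strand to GGGCGG for the GC box, TATAAA for the TATA box, CCAAT as it stands, TGGGTGGTC for the core motif of the GLI factors of hedgehog signalling, or GTAAACA for the core motif of the FoxO factors.
Igf1, chr10:87860861-87861110 (plus strand): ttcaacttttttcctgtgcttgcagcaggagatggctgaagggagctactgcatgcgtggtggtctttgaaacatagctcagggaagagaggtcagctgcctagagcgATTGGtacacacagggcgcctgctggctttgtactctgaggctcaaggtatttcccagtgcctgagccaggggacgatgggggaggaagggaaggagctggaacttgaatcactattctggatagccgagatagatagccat
Igfbp2, chr1:72824230-72824479 (plus strand): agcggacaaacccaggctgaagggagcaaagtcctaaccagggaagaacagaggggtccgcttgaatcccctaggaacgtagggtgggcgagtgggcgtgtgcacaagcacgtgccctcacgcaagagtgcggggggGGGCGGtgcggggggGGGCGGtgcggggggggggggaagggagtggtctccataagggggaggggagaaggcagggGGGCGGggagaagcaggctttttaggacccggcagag
Igfbp5, chr1:72874866-72875115 (minus strand): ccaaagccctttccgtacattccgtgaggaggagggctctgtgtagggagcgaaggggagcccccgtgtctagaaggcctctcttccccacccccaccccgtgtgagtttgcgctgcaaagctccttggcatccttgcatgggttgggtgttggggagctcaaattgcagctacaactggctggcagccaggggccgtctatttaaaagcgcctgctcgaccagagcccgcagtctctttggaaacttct
Igf1r, chr7:67952007-67952256 (plus strand): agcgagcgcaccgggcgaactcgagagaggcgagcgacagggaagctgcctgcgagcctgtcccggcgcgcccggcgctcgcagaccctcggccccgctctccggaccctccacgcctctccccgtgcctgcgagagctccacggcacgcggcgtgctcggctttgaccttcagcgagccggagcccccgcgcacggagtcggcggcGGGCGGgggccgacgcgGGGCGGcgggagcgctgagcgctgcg
The Igf1 window held a CCAAT match on the opposite strand, with its first base at -142 from the start, and no GC or TATA box. The Igfbp2 window held 3 GC boxes, at -113, -98 and -37, and a second Igfbp2 window in the table held none of the 5 motifs. The Igf1r window held 2 GC boxes, at -43 and -26, and the Igfbp5 window held none of the motifs. Of the 32851 windows of this length, 32.7% held a GC box, 12.4% a TATA box, 33.8% a CCAAT match, 0.225% a GLI core and 3.17% a FoxO core, and neither of the last pair occurred in any of the 10 member windows. The GC content was 52.8% for Igf1, 67.2% for Igfbp2, 58.8% for Igfbp5 and 77.6% for Igf1r, against a median of 52.4% over all windows. These matches describe letters and not bound sites.

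Values are MAS5 intensities, a linear signal in arbitrary units that depends on the probes, so levels are not compared between probe sets. A floor was set at 78.1, the median of all values of both arrays. Measured probe sets are those that exceeded the floor on at least 1 array. Of the 26 member probe sets 23 were measured, all with both arrays above the floor, so that none of their ratios is a bound.

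**Figure D1:**
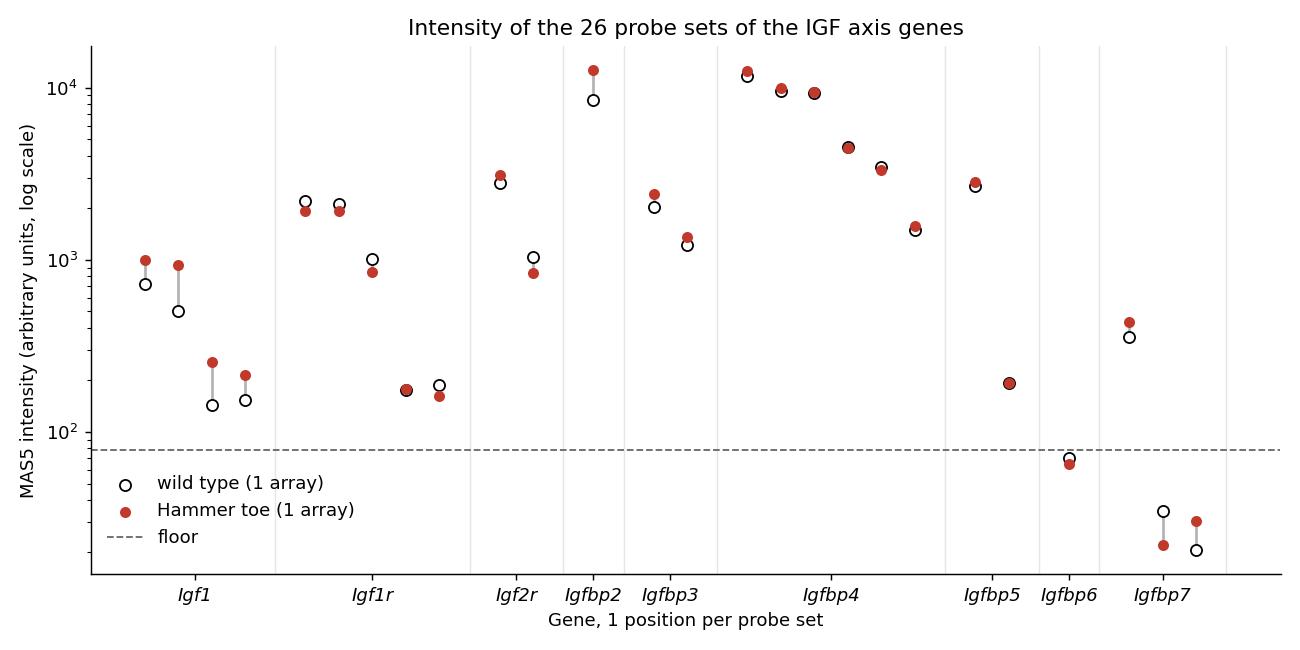
MAS5 intensity (log scale, arbitrary units) of each of the 26 probe sets on the wild-type array (open circles) and the Hammer toe array (red), grouped by gene, with the floor of 78.1 as a dashed line. The 4 Igf1 pairs and the Igfbp2 pair stand apart vertically, while the circles of Igfbp4 and Igfbp5 nearly coincide.

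The ligand gene Igf1 was read by 4 probe sets. The probe set with the highest mean, 1437401_at, read 718 on the wild-type array and 997 on the Hammer toe array, a log2 ratio of 0.47. Probe set 1434413_at read 501 and 929, a log2 ratio of 0.89. On this probe set the Hammer toe array was 1.85-fold higher, the largest ratio of any member probe set. Probe set 1452014_a_at read 143 and 255, a 1.79-fold difference, and 1419519_at read 154 and 214, a 1.39-fold difference. The probe sets thus fell into a pair near 1.4-fold and a pair near 1.8-fold. On all 4 the brighter array read 200 to 1000, where 95% of named measured probe sets lay within 1.45-fold. The pair near 1.4-fold lay inside that range and the pair near 1.8-fold outside it. Igf1 was read by no other probe set. Their median was 1.58-fold and the SD of their log2 ratios was 0.23 (n = 4 probe sets of 1 RNA pair, which share their sample and are not replicates). Pooled over the 5134 genes that had several probe sets past the floor on both arrays, the SD around each gene's mean was 0.21. The annotated Igf1 antisense gene Igf1os was under the floor on both arrays, at 3.21 and 22.9.

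**Figure D2:**
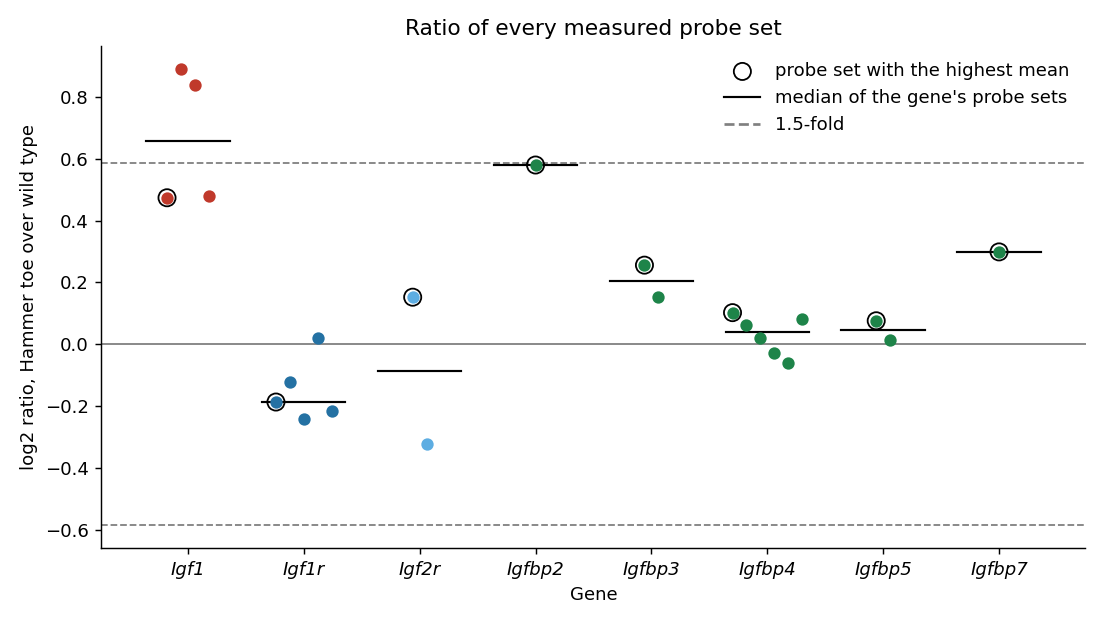
Log2 ratio, Hammer toe over wild type, of each of the 23 measured member probe sets, with the probe set of highest mean ringed, the gene's median as a bar and 1.5-fold as dashed lines. Igf1 lies wholly above 0.4, Igfbp2 lies just under the upper line, and 4 of the 5 Igf1r probe sets lie below 0.

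At 1.5-fold or more, 2 of the 23 measured member probe sets were higher in Hammer toe, both of Igf1, and none was lower. Over all 20995 named measured probe sets, 2.15% were higher and 1.75% lower by that size. Igfbp2 fell just short, at a log2 ratio of 0.58. At a log2 difference of 0.32 or more, 5 member probe sets were higher (the 4 of Igf1 and that of Igfbp2) against 9.07% of all, and 1 was lower (of Igf2r) against 7.77%. By the probe set with the highest mean, no member gene reached 1.5-fold in either direction, where 2.17% of 11621 measured genes were higher and 1.39% lower. The median log2 ratio of the 23 probe sets was 0.08, with 16 higher and 7 lower, and that of all named measured probe sets was 0.00, with 10540 higher and 10455 lower. The member count rests on few genes, since 6 of the 23 probe sets are of Igfbp4 and 5 of Igf1r.

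All 4 Igf1 probe sets were higher by a log2 ratio of 0.32 or more, which few genes with 4 or more measured probe sets showed. Those genes were of any brightness and not matched to Igf1, and the spread between the arrays differs with brightness. The SD between the Igf1 probe sets was 0.23, close to the pooled 0.21 over genes with several probe sets. Of 918 genes with 4 or more measured probe sets, 6.32% had every one higher in Hammer toe. Only 4 of these genes, 0.436%, had every one higher by a log2 ratio of 0.32 or more, with bounds counted at their bound: Igf1, Alcam, Apcdd1 and Hhip. This count was not among the planned results and only describes where Igf1 lay. Alcam encodes a cell adhesion molecule, Apcdd1 a membrane inhibitor of Wnt signalling, and Hhip a hedgehog-binding protein that is itself a hedgehog target. In the opposite direction 0.109% had every probe set lower by that size.

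The signalling receptor gene Igf1r was slightly lower in Hammer toe on 4 of its 5 probe sets. Probe set 1452982_at read 2195 and 1929, a 1.14-fold lower value, and 1428967_at read 2099 and 1928, 1.09-fold lower. The lowest ratio was that of 1426565_at, at 1009 and 853, 1.18-fold lower. Probe set 1446303_at read 187 and 162, 1.16-fold lower. The exception, 1452108_at, read 175 and 178, a log2 ratio of 0.02 that turned to -0.01 under quantile normalization. The median log2 ratio of Igf1r was -0.19, with an SD of 0.10 between its 5 probe sets, and no probe set reached a log2 difference of 0.32. Having every one of 4 or more probe sets lower was seen for 10.1% of genes, and Igf1r was not among them because of 1452108_at.

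The IGF2 clearance receptor gene Igf2r gave opposed readings. Probe set 1424112_at read 2774 on the wild-type array and 3083 on the other, 1.11-fold higher in Hammer toe. Probe set 1424111_at read 1042 and 834, lower in Hammer toe with a log2 ratio of -0.32. The direction of Igf2r is therefore not settled by these arrays. A further probe set shared with Airn, the antisense transcript of the Igf2r locus, was left out because it names both genes, and read 35.6 and 44.9, under the floor on both arrays.

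**Figure D3:**
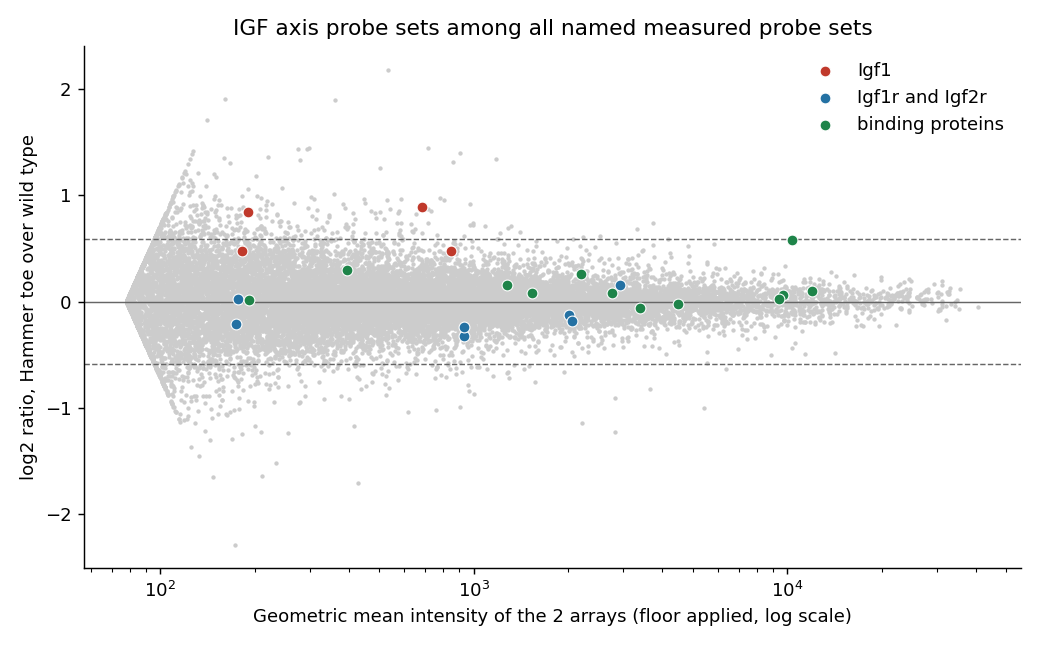
Log2 ratio, Hammer toe over wild type, against the geometric mean intensity of both arrays (log scale) for all 20995 named measured probe sets (grey), with Igf1 in red, the receptors in blue and the binding proteins in green; dashed lines mark 1.5-fold. The grey cloud narrows to the right, where Igfbp2 lies at its upper edge.

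Igfbp2, whose product binds IGF2 more strongly than IGF1, was read by 1 probe set, 1454159_a_at. The wild-type array read 8468 and the Hammer toe array 12655, and the 1.49-fold difference was the largest among the binding protein genes. Bright probe sets varied less between the arrays. Among the 6800 named probe sets whose brighter array read over 1000, 95% lay within a log2 difference of 0.32, 2.59% were higher by that much and 0.368% by 1.5-fold or more. No second probe set was there to set beside this reading. Igfbp5, the next protein-coding gene to Igfbp2 on chromosome 1 and transcribed towards it, read 2682 and 2828 on 1452114_s_at, 1.05-fold higher, and 191 and 193 on 1422313_a_at, a log2 ratio of 0.02 that turned to -0.01 under quantile normalization. Igfbp5 encodes a binding protein that also attaches to extracellular matrix, and neither of its probe sets passed a log2 ratio of 0.08. On the other side of Igfbp2, the ribosomal protein gene Rpl37a had a log2 ratio of 0.03. Neither neighbour thus came near the ratio of Igfbp2.

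Igfbp3, which encodes the main carrier of IGFs in serum, read slightly higher in Hammer toe on both probe sets. Probe set 1423062_at read 2015 and 2406, 1.19-fold higher, and 1458268_s_at read 1213 and 1350, 1.11-fold higher. Both ratios, at log2 values of 0.26 and 0.15, were inside the log2 difference of 0.32 that held 95% of probe sets of this brightness. Igfbp1, the adjacent gene on chromosome 11, was under the floor on both arrays, at 10.6 and 4.65.

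Igfbp4, whose product mostly inhibits IGF action until it is cleaved, had the most probe sets and lay near wild type on each. Its 6 probe sets ranged in log2 ratio from -0.06 to 0.10, with 4 higher and 2 lower and a median of 0.04. Probe set 1437405_a_at read 11601 and 12456, and 1421992_a_at read 3460 and 3322, the ends of that range. The SD between the 6 probe sets was 0.06, the same as that of the 18 spiked hybridisation control probe sets. Of the 6, 2 have the suffix _x_at, which marks probes that can bind other transcripts.

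Igfbp7, which encodes a low-affinity binding protein of vessel and connective tissue matrix, was measured on 1 of 3 probe sets. Probe set 1423584_at read 355 and 437, 1.23-fold higher in Hammer toe, where 95% of probe sets with a brighter array of 200 to 1000 lay within 1.45-fold. The other 2 were under the floor on both arrays, at 34.5 and 22.1 and at 20.5 and 30.4, and gave no ratio. Igfbp6, whose product prefers IGF2, had 1 probe set, which read 70.4 and 64.7, under the floor on both arrays. Over the 12 measured binding protein probe sets, 10 were higher and 2 lower, with a median log2 ratio of 0.08. Of all named measured probe sets 50.2% were higher. The count rests on few genes, since 6 of the 12 are of Igfbp4, and probe sets of 1 gene are not replicates. None of the 12 reached 1.5-fold.

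Igf2, the other IGF ligand gene and the one that dominates in the embryo, read 10232 and 11132 on 1448152_at, a log2 ratio of 0.12. The other Igf2 probe set read 968 and 1249, a log2 ratio of 0.37. Each of these ratios was smaller than any of the 4 of Igf1, but brighter probe sets varied less between the arrays. Where the brighter array read over 1000, as for both Igf2 probe sets, 95% lay within a log2 difference of 0.32. The ratio of 0.37 lay outside that range and that of 0.12 inside it. The insulin receptor gene Insr, whose product can pair with the IGF1 receptor, read 603 and 534, a log2 ratio of -0.18. Its other measured probe set was under the floor in Hammer toe, so its log2 ratio was -0.24 or lower. Igfals, which encodes the acid-labile subunit of the serum IGF complex, was under the floor on both arrays at 1.99 and 21.9.

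Across 82 further genes of the pathway, 60 were measured, 16 did not pass the floor on either array and 6 had no probe set that names them alone. Of the 60, 34 were higher and 26 lower in Hammer toe, with a median log2 ratio of 0.01, as over all 11621 genes. At 1.5-fold or more 3 of the 60 were higher, against 2.17% of all measured genes, and none was lower. Ccn3, a matricellular protein gene with the same type of N-terminal domain as the binding proteins, was under the floor in wild type at 74.7 and read 155 in Hammer toe, a difference of at least 1.98-fold. Its other probe set, at 72.3 and 78.9, was also under the floor in wild type and only just past it in Hammer toe, a log2 ratio of at least 0.02. Pik3ip1, which encodes a membrane inhibitor of PI3K, read 158 and 304, 1.93-fold higher, but its second probe set stood at -0.57. Pik3r1, the gene of the p85 alpha regulatory subunit of PI3K, read 1687 and 2531, with a log2 ratio of 0.59, just past 1.5-fold. Its 3 other probe sets ranged from 0.18 to 0.79, all higher. Centring on the median, quantile normalization or the pseudocount put Pik3r1 just under 1.5-fold and left 2 genes at that size.

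By role, the lists lay near wild type. Among 5 measured proteases of the binding proteins and their inhibitors, 3 were higher and 2 lower. Stc1, a secreted inhibitor of the pappalysin proteases, had the largest ratio, 1.45-fold lower, from 266 to 183. Htra1, a serine protease that cleaves binding proteins, was 1.39-fold higher, at 468 and 651, and the log2 ratio of its other probe set was 0.17. Pappa, the protease of IGFBP4, was under the floor on both arrays. Of 12 receptor adaptor genes, 6 were higher and 6 lower, and Grb14, an adaptor that inhibits insulin receptor signalling, had the largest ratio, 1.31-fold higher. Irs1 and Irs2, the insulin receptor substrates, read 2450 and 3119 and 548 and 678, and were 1.27-fold and 1.24-fold higher. Of 16 PI3K, AKT and mTOR genes 9 were higher and 7 lower, and of 13 FoxO factors and genes that PI3K signalling represses through them 7 were higher and 6 lower. In the growth hormone arm 4 of 6 were higher, with Socs2, the feedback inhibitor of growth hormone signalling, 1.33-fold higher, from 1113 to 1475, and at log2 ratios of 0.15 and at least 0.03 on its other measured probe sets. The growth hormone receptor gene Ghr had a log2 ratio of 0.00 on its probe set of highest mean and of 0.45 and at least 0.04 on the others. Of the measured IGF mRNA-binding protein genes, Igf2bp1 had a log2 ratio of -0.26, with the others of its probe sets from -0.34 to -0.03, and Igf2bp3 of 0.02, with the others from -0.16 to 0.00.

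**Figure D4:**
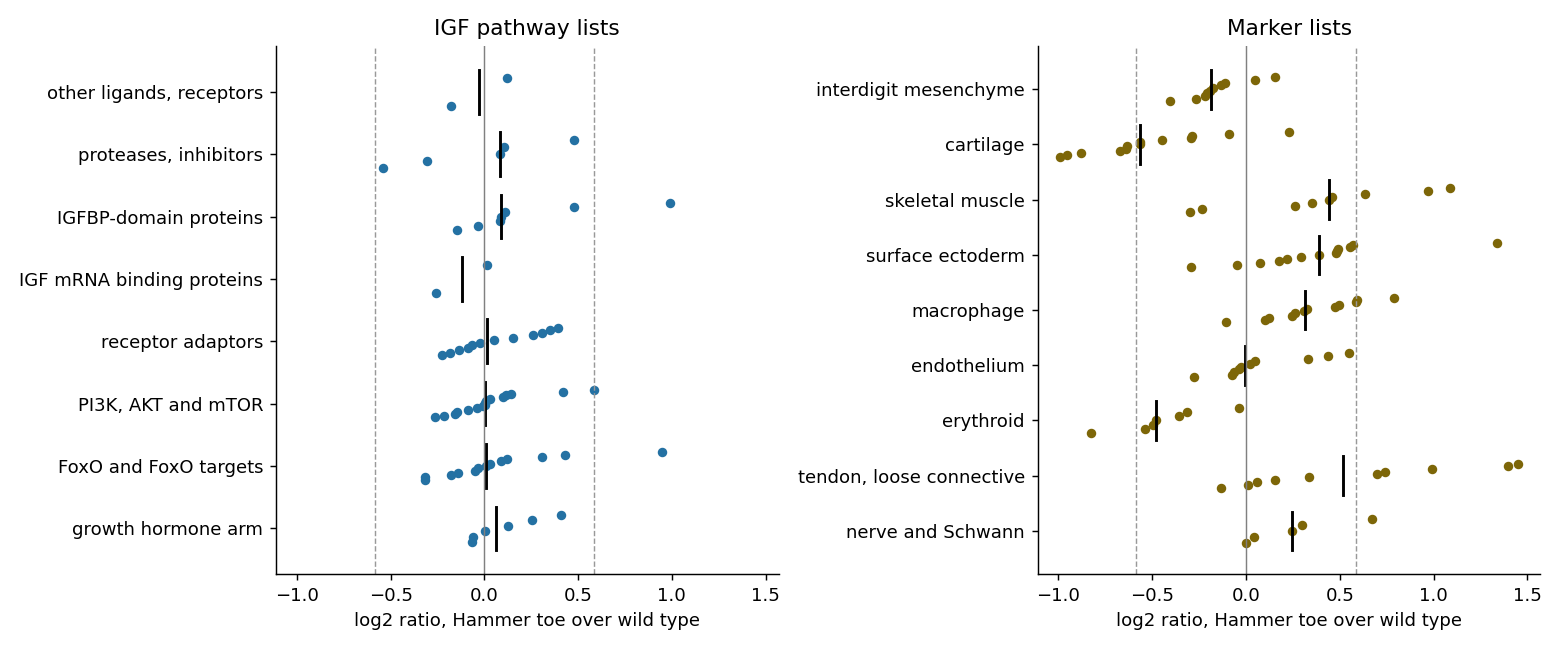
Log2 ratio, Hammer toe over wild type, of each measured gene (probe set with the highest mean) in the lists of the IGF pathway without the 9 members (left) and in the marker lists (right); bars are list medians and dashed lines mark 1.5-fold. Medians of the pathway lists lie between -0.12 and 0.09, and those of the marker lists, drawn without the sex-linked genes, between -0.57 and 0.52.

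All 10 marker genes of interdigit and distal limb mesenchyme were measured. Hoxd13 read 17291 and 15779, and Aldh1a2, the retinoic acid enzyme of the interdigit, read 13129 and 11474. Of 18193 named genes 11621 were measured, and no other tissue was compared. The values thus do not set the interdigit apart from other distal limb tissue. Of the 10, 8 were lower in Hammer toe, with a median log2 ratio of -0.18 and intensities that summed to 65719 and 59198. Igf1 is also expressed by macrophages, muscle and connective tissue cells. Markers of other tissues differed between the arrays beside Igf1 and Igfbp2, and in whole tissue fewer cells of a type and less RNA per cell cannot be told apart. Each marker is counted by its probe set of highest mean, and 51.7% of all measured genes were higher by that rule. Some markers had another probe set in the opposite direction, among them Col1a1, Epcam, Krt14, Bmp7 and Msx1. Tendon and loose connective tissue genes were higher in 9 of 10 and their middle log2 ratio was 0.52. Their intensities summed to 15297 on the wild-type array and 18056 on the Hammer toe array, of which Col3a1 alone gave 11381 and 11854, so that such sums mostly follow the brightest probe sets. Macrophage genes were higher in 11 of 12 (median log2 ratio 0.32), with sums of 3458 and 4433. Skeletal muscle genes were higher in 7 of 9 measured (median log2 ratio 0.44), with sums of 1343 and 1995, while Myf5, Pax3, Pax7 and Tnnt2 were under the floor on both arrays. The list for surface ectoderm was higher in 11 of 13 (median log2 ratio 0.39), with sums of 11756 and 14870. Cartilage genes were lower in 12 of 13 (median log2 ratio -0.57), with sums of 16645 and 10831. Erythroid genes were lower in all 7 measured (median log2 ratio -0.48), with sums of 58058 and 49811. Of these sums Hbb-y alone gave 34790 and 33861, at a log2 ratio of only -0.04, and its other probe sets stood at -0.02 and 0.19. Endothelial genes were higher in 5 of 10 (median log2 ratio -0.003), with sums of 5307 and 5743. Nerve and Schwann genes were higher in 4 of 5 measured (median log2 ratio 0.25), with sums of 997 and 1262, while Sox10 only just passed the floor in Hammer toe, at a bound of 0.00. No marker was at 0 on either array. The sex-linked genes Xist, Eif2s3y, Uty and Kdm5d had log2 ratios of -0.44, 0.77, 0.65 and 0.48. Xist, which is expressed in females, was also lower on its other probe sets, at -0.50 and -0.72, and the Y-linked genes were higher. The sexes of the embryos are not given, so the sex mix of the arrays may differ and cannot be told apart from genotype. The part of these differences in the values of Igf1 and Igfbp2 was not tested.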

How the data were processed

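Total RNA from interdigital tissue (RNeasy columns, 250 ng into biotinylated cRNA) was hybridised to Affymetrix arrays, per the labels' protocols. The deposited table holds 1 intensity per probe set and array, which per the submitters' processing notes the authors made in Affymetrix Expression Console with MAS5. Both arrays had a 2% trimmed mean of 500.003, so a shift of most transcripts together cannot be seen. Genes were named from GEO's platform annotation, with symbols updated through the gene ID to RefSeq (GRCm38.p6): of 45037 non-control probe sets 34945 had 1 gene, 932 several and 9160 none. Promoter sequences are RefSeq's. Values under the floor of 78.1 were set to it before ratios were taken on the log2 scale. The probe set of highest mean stood for its gene. Differences were called by size alone, at 1.5-fold, and no p-value was computed. The spread is described by probe sets of 1 gene, spiked controls and probe sets of like intensity, none of which holds variation between embryos.

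All 9 members are described on every probe set. Of the pathway lists, the genes at 1.5-fold or more (or the largest) and Igf2, Insr, Igfbp1 and Igfals are named. Irs1, Irs2, Htra1, Pappa, Socs2, Ghr, Alcam, Apcdd1, Hhip and the IGF mRNA-binding genes, and the promoter motifs, were chosen after values were seen. The members and lists were chosen with earlier results of these data known. The code (Python 3.11.15, pandas 2.3.3) was tested on simulated data. The differences planted there were larger than any member ratio, so calls at the sizes reported for the members were not tested. Alternatives were 3 scalings, 3 other floors, a pseudocount of 50, the mean over probe sets, leaving out suffixed probe sets, and calls at a log2 difference of 0.32 and at 2-fold.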

Additional observations from a re-analysis of the deposited data

How the results depend on the processing

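With 1 array per genotype no alternative tests the difference itself, and the number of arrays limits the precision; leaving out an array was not possible. No paired analysis was possible because each genotype has 1 array. The 3 scalings (centring on the median, quantile and lowess) moved no count by over 1.5 times and moved the median of all measured probe sets by under 0.01 on the log2 scale. Over the 7 scalings, floors and pseudocount, the 4 Igf1 probe sets stayed higher wherever measured. The log2 ratio of Igfbp2 ranged from 0.57 to 0.58 over these settings. Leaving out suffixed probe sets left Igfbp2, Igfbp4 and Igfbp5 with no reading, since all of their probe sets have a suffix. With that setting counted too, the median over member probe sets ranged from 0.07 to 0.09. The mean over probe sets turned the log2 ratio of Igf2r from 0.15 to -0.09 and moved that of Igf1 from 0.47 to 0.67.

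Member probe sets at the size called were 2 higher and 0 lower. They were 1 lower with no floor and 1 lower with a floor at the 25th percentile (a dim Igfbp7 probe set), 1 higher with a floor at the 75th percentile, 1 higher without suffixed probe sets, 5 higher and 1 lower at a log2 difference of 0.32, and 0 higher at 2-fold. Of the pathway genes, 3 higher and 0 lower became 6 and 4 with no floor, 3 lower with the 25th percentile, 1 higher with the 75th, 1 higher with the mean over probe sets, 9 and 1 at a log2 difference of 0.32, and 0 higher at 2-fold. Over all genes, 252 higher and 162 lower became 2364 and 2301 with no floor, 1176 and 1084 with the 25th percentile, 25 and 21 with the 75th, 454 and 417 with the pseudocount, 984 and 736 at a log2 difference of 0.32, and 30 and 13 at 2-fold. Over all probe sets, 451 and 368 became 4703 and 4921, 2273 and 2296, 41 and 42, 794 and 825, 1904 and 1631, and 47 and 40 under the same settings. Fewer or more probe sets enter under another floor.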
